A study of Mus musculus with 8 samples.

Results

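The genes described here are 33 mouse genes that type I interferon induces and that act against viruses. They were listed by name, with earlier results of these data known, and each gene took its brightest probe over the 8 arrays. Of the 33, 31 were measured, among 29462 genes and unnamed features tested. Mx1 and Mx2 are not analysed here, because the accessions paired with them matched no probe. The 8 arrays held total RNA of cultured cells from the abdominal subcutaneous fat of male C57BL/6 mice. Feeding began at 6 weeks of age and lasted 12 or 24 weeks, with either chow or a high-fat diet (60% fat). The groups of 2 arrays each are called C12 (chow, 12 weeks), HF12 (high-fat, 12 weeks), C24 (chow, 24 weeks) and HF24 (high-fat, 24 weeks). All animals shared strain, sex and starting age, so the mice fed for 24 weeks were also older, and time on a diet and age cannot be told apart. The cells had been kept for their adherence to plastic and passaged, not sorted on a surface marker, and were used as mesenchymal stem cells per the labels. The labels do not say whether the 2 arrays of a group came from separate animals or cultures, and p-values here reflect array-to-array spread that may be technical.

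Type I interferons are secreted when a cell detects foreign or misplaced nucleic acid, through cytoplasmic sensors such as RIG-I and MDA5 or through Toll-like receptors. They bind a receptor made of Ifnar1 and Ifnar2, whose kinases Jak1 and Tyk2 phosphorylate Stat2 among other proteins. Stat2 joins Irf9 in a transcription factor complex, ISGF3, that binds the interferon-stimulated response element, a promoter motif built on repeats of GAAA. The induced proteins degrade viral RNA, block its translation, hold virus particles at the membrane, or feed back on the pathway itself. Many of them are also expressed at a low level without infection, in stromal cells and in macrophages of fat.

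A repeat of that element was looked for in 300 bases around the annotated start of each gene (250 before and 50 after it), in the RefSeq promoter sequences of assembly GRCm38.p6. The pattern searched was GAAA, any 2 bases and GAAA again, or TTTC, any 2 bases and TTTC for the other strand, and matches could overlap each other. It was found for 12 of the 24 measured genes with such a sequence (50%), and for 1079 of 27025 genes in the whole table (3.99%). A match describes the letters and is not evidence of binding. The stretches below show the 8 genes whose matches lay wholly before the start, because genes that carried the same letters differed in how they moved between the diets. Each is read 5′ to 3′ on the strand of the gene, with the matching bases in capitals. Isg15 (chr4:156200855-156200916, minus strand), Ifit1 (chr19:34640765-34640833, plus strand), Ifit3 (chr19:34583353-34583436, plus strand), Bst2 (chr8:71537567-71537622, minus strand) and Stat2 (chr10:128270256-128270305, plus strand) fell on the high-fat diet at both times. Rsad2 (chr12:26456543-26456592, minus strand) rose at 12 weeks and fell at 24, Oas3 (chr5:120777705-120777754, minus strand) rose at 12 weeks and was not called at 24, and Oas1a (chr5:120907526-120907565, minus strand) was not called at 12 weeks and fell at 24.
Isg15: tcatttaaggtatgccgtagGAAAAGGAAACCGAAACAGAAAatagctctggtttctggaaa
Ifit1: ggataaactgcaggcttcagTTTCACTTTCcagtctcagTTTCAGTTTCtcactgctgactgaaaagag
Ifit3: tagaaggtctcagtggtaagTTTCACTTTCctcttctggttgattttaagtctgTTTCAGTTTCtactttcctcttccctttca
Bst2: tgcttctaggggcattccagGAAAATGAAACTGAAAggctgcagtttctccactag
Stat2: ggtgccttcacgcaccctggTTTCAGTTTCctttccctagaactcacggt
Rsad2: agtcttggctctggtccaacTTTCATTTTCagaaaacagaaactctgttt
Oas3: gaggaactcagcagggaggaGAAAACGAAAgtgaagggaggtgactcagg
Oas1a: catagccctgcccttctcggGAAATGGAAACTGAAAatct
Isg15 carried 3 overlapping matches, Ifit1 and Ifit3 had 2 separate ones each, Bst2 and Oas1a 2 overlapping ones, and Stat2, Rsad2 and Oas3 had 1. Among the 12 genes with a match 8 fell at 12 weeks and 10 at 24 weeks on the high-fat diet, and among the 12 without one 6 and 7 fell, where 17.6% of all features fell at 12 weeks and 20.3% at 24 weeks. The difference between the genes with and without a match was not tested. Irf7 and Ifi44, 2 of the members that moved most, had none in this window.

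Levels are log2 processed intensities minus the 75th percentile of the array, so 0 is a spot as bright as that percentile. They compare arrays for 1 gene, and not genes with each other, because probes differ in brightness. All 31 genes were well above background on all 8 arrays, and no spot was saturated. Between 66.6% and 68.6% of spots were well above background on the 12-week arrays, against 59.4% to 64.1% on the 24-week arrays. The 8 arrays lay on 1 slide, where the 12-week arrays filled 1 row and the 24-week arrays the other, and chow and high-fat arrays lay in different columns. Slide row and feeding time cannot be told apart, nor can slide column and diet. Changes are log2 differences ± standard error from a limma fit on all 8 arrays, and a gene was called at an adjusted p under 0.05 over all 29462 features. The interaction is the diet change at 24 weeks minus the diet change at 12 weeks. The comparisons over time reuse the arrays of the comparisons over diet, so their calls are not independent of each other.

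The antiviral genes stood highest in C24 and lowest in HF12. Measured as the median over the 31 genes of the distance from each gene's own mean, the C24 arrays were at 0.25 and 0.36 and the C12 arrays at 0.09 and 0.10. The HF24 arrays were at −0.10 and −0.11 and the HF12 arrays at −0.28 and −0.22. Every high-fat array was thus below every chow array in this median. C24 had the highest group mean for 21 of the 31 genes, C12 for 8, HF12 for Oas3 alone and HF24 for Parp14 alone. HF12 had the lowest mean for 16 genes, HF24 for 9 and C12 for 6, and C24 for none.

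**Figure D1:**
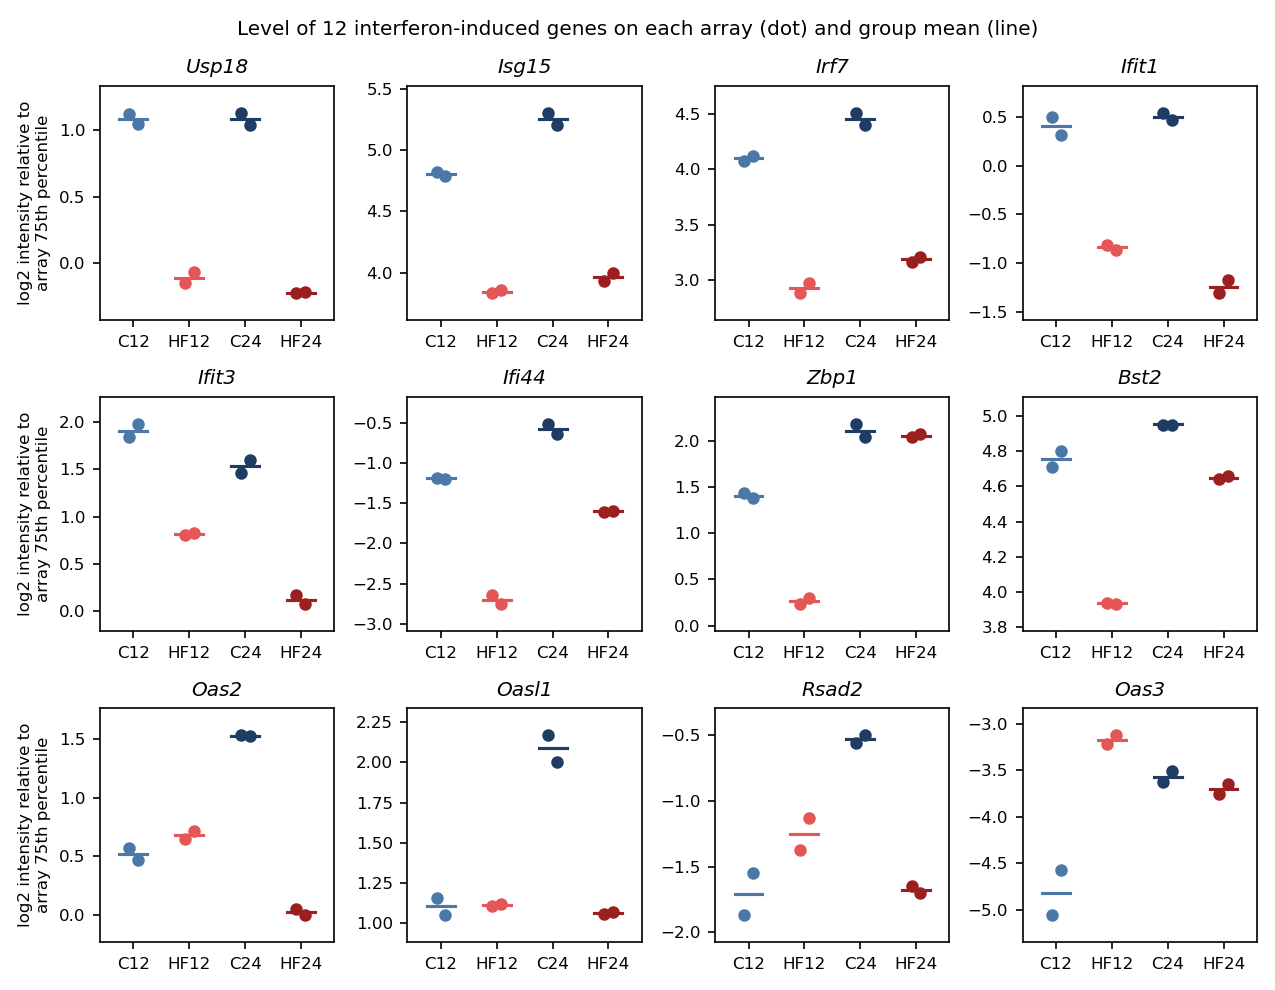
Level of 12 of the antiviral genes on each array (dots) with the mean of the 2 arrays of a group (lines); the vertical axis is log2 intensity relative to the 75th percentile of the array, on a separate scale for each gene. Usp18, Isg15, Irf7, Ifit1, Ifit3 and Ifi44 were lower in both high-fat groups than in the chow group of the same time, while Oas2, Oasl1 and Rsad2 stood above the other groups in C24, and Oas3 was lowest in C12.

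After 12 weeks, 19 of the 31 antiviral genes were lower on the high-fat diet than on chow (61.3%), 3 were higher (9.68%), and 9 were not called. Over all features tested 17.6% fell and 13.7% rose. The median change of the 31 genes was −0.39, against −0.04 over all features. The genes that fell included every nucleic acid sensor and transcription factor of the list, Ifit1 and Ifit3, Isg15 and its protease Usp18, and the membrane factors Bst2 and Ifitm3. The 3 that rose were Oas3 and the neighbouring pair Rsad2 and Cmpk2. At least 2-fold changes were found for 6 genes that fell (Ifi44, Ifit1, Usp18, Irf7, Zbp1 and Ifit3) and 1 that rose (Oas3). With each array left out in turn, 15 of the 19 falls and 2 of the 3 rises held every time. The falls of Oasl2, Dhx58, Irf9 and Ifitm3 and the rise of Rsad2 did not. In bulk RNA of this kind, fewer cells of a type and less RNA per cell cannot be told apart. The summed linear level of 14 macrophage markers, relative to the 75th percentile of the array, was 45.4 to 46.1 on the C12 arrays and 246 on both HF12 arrays. The 7 adipocyte markers summed to 542 to 550 on the C12 arrays and 82.9 to 86.3 on the HF12 arrays.

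After 24 weeks 21 of the 31 genes fell on the high-fat diet (67.7%), none rose, and 10 were not called. Over all features 20.3% fell and 12.9% rose. None of the 31 rose at an unadjusted p under 0.05 in limma either. Their median change was −0.38, against −0.01 over all features. The genes that fell at this time included Rsad2, Cmpk2 and 4 of the oligoadenylate synthetase family. The sensor Zbp1 and the transcription factor Irf9 were not called. For Irf9 the interaction was not called either (0.13 ± 0.08, adjusted p = 0.301). The 9 genes that fell at least 2-fold were Ifit1, Oas2, Ifit3, Usp18, Isg15, Irf7, Rsad2, Ifi44 and Oasl1. Of the 21 falls, 13 held whichever array was left out. The same macrophage markers summed to 98 to 102 on the C24 arrays and 192 to 196 on the HF24 arrays. All 4 tested keratinocyte markers fell at 24 weeks, with sums of 3.51 to 3.54 in C24 and 0.36 to 0.361 in HF24, as did all 4 muscle markers, with sums of 24.9 to 25.7 and 5.24 to 5.28.

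**Figure D2:**
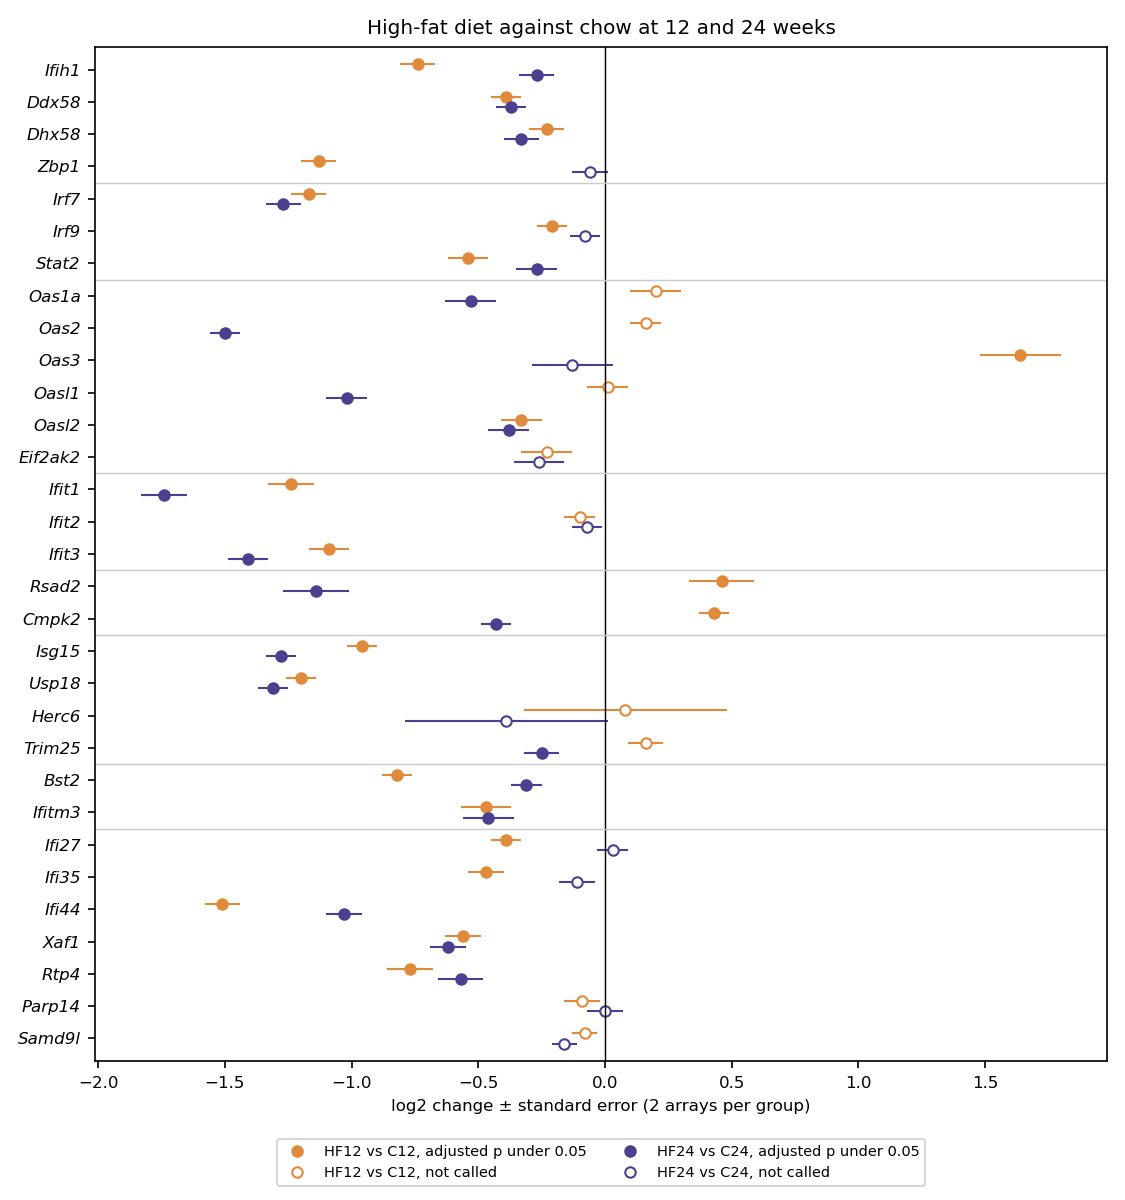
Change between high-fat diet and chow at 12 weeks and at 24 weeks for each of the 31 genes, as the log2 difference of 2 arrays against 2 with its standard error; filled points passed an adjusted p under 0.05, and grey lines separate the roles. Most points lie to the left of 0 at both times; Oas3, Rsad2 and Cmpk2 passed the test to the right of 0 at 12 weeks.

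The 2 diet comparisons share no arrays, and 15 of the 31 genes fell in both: Bst2, Ddx58, Dhx58, Ifi44, Ifih1, Ifit1, Ifit3, Ifitm3, Irf7, Isg15, Oasl2, Rtp4, Stat2, Usp18 and Xaf1. Over all features 6.47% fell in both. Rsad2 and Cmpk2 rose at 12 weeks and fell at 24, which 1.62% of all features did. The interaction tested the difference itself. The diet change was more negative at 24 weeks for 9 genes and less negative or higher at 24 weeks for 6, against 17% and 12.8% of all features, and 16 genes were not called. Either way, 29.8% of all features had a called interaction. The median interaction was −0.06, against −0.03 over all features. The 9 were Oas1a, Oas2, Oas3, Oasl1, Rsad2, Cmpk2, Ifit1, Isg15 and Trim25, and the 6 were Zbp1, Bst2, Ifi44, Ifih1, Ifi27 and Ifi35. The count of 9 was 5 with HF12 replicate 2 left out. Some calls also depended on the normalization, filter, probe or samples used: Dhx58, Irf9, Oasl2, Rsad2 and Stat2 (adjusted p from 0.0573 to 0.597) at 12 weeks, Dhx58, Ifih1, Ifitm3, Oasl2, Stat2 and Trim25 (adjusted p from 0.059 to 0.133) at 24 weeks and Ifi35, Ifit1, Isg15 and Trim25 (adjusted p from 0.0514 to 0.0965) in the interaction were each lost under at least 1 such setting.

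Of the sensors, Ifih1 encodes MDA5, which binds long double-stranded RNA. It stood at 0.31 and 0.16 in C12, −0.51 and −0.50 in HF12, 0.01 and −0.02 in C24 and −0.27 and −0.27 in HF24. Both high-fat groups lay below both chow groups with no overlap, and HF12 lay lowest. The diet change was −0.74 ± 0.07 (adjusted p = 5.61e-04) at 12 weeks and −0.27 ± 0.07 (adjusted p = 0.0256) at 24 weeks, and the interaction was 0.47 ± 0.09 (adjusted p = 0.0134). The 24-week fall was lost with any array but C12 replicate 1 or C12 replicate 2 left out (adjusted p from 0.0523 to 0.108), and the interaction with HF12 replicate 1 left out (adjusted p = 0.0503). From 12 to 24 weeks Ifih1 fell on chow (−0.24 ± 0.07, adjusted p = 0.0271), a call lost with any array but C12 replicate 2 left out (adjusted p from 0.0522 to 0.105). It rose on the high-fat diet (0.23 ± 0.07, adjusted p = 0.0323), a call lost with any array but C12 replicate 1 or C12 replicate 2 left out (adjusted p from 0.053 to 0.119).

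Zbp1, a sensor of Z-form nucleic acid that can trigger cell death, stood at 1.43 and 1.38 in C12, 0.23 and 0.30 in HF12, 2.18 and 2.04 in C24 and 2.04 and 2.07 in HF24. HF12 was far below the other 3 groups, and HF24 overlapped C24. The gene fell by 1.13 on the log2 scale at 12 weeks, 2.2-fold (SE 0.07, adjusted p = 1.16e-04), while the 24-week change was −0.06 ± 0.07 (adjusted p = 0.586). The interaction was 1.08 ± 0.10 (adjusted p = 8.68e-04), and Zbp1 rose from 12 to 24 weeks on chow (0.71 ± 0.07, adjusted p = 5.97e-04) and on the high-fat diet (1.79 ± 0.07, adjusted p = 2.69e-05). A second Zbp1 probe fell at 24 weeks (−0.33). Ddx58, which encodes RIG-I, the sensor of short RNA with a free end, stood at 2.12 and 2.07 in C12, 1.67 and 1.74 in HF12, 2.20 and 2.20 in C24 and 1.81 and 1.85 in HF24. Its high-fat arrays lay below its chow arrays at both times, with changes of −0.39 ± 0.06 (adjusted p = 0.0036) and −0.37 ± 0.06 (adjusted p = 0.00421), and the interaction was 0.02 ± 0.08 (adjusted p = 0.856). Dhx58, which encodes their regulator LGP2, stood at −1.14 and −1.02 in C12, −1.32 and −1.31 in HF12, −1.20 and −1.23 in C24 and −1.50 and −1.60 in HF24. It fell too, with changes of −0.23 ± 0.07 (adjusted p = 0.0461) at 12 weeks and −0.33 ± 0.07 (adjusted p = 0.013) at 24 weeks. The 12-week call was lost with any array left out (adjusted p from 0.0508 to 0.159), and the 24-week call with C24 replicate 1 or HF24 replicate 2 left out (adjusted p = 0.0632 and 0.0719). Dhx58 also fell from 12 to 24 weeks on the high-fat diet (−0.23 ± 0.07, adjusted p = 0.0338), a call lost with any array but C12 replicate 1 or C12 replicate 2 left out (adjusted p from 0.0551 to 0.164).

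Among the transcription factors, Irf7 drives interferon alpha genes and is itself induced by interferon. It stood at 4.08 and 4.12 in C12, 2.88 and 2.97 in HF12, 4.51 and 4.40 in C24 and 3.16 and 3.21 in HF24. The high-fat arrays were more than 1 log2 unit below the chow arrays of the same time, with no overlap. Irf7 fell 2.26-fold at 12 weeks (−1.17 ± 0.07, adjusted p = 8.41e-05) and 2.4-fold at 24 weeks (−1.27 ± 0.07, adjusted p = 1.51e-04). The interaction of this probe was −0.09 ± 0.09 (adjusted p = 0.516), whereas a second Irf7 probe gave a called interaction of −0.47. Irf7 rose with time on chow (0.35 ± 0.07, adjusted p = 0.00715) and on the high-fat diet (0.26 ± 0.07, adjusted p = 0.0218), the latter lost with HF12 replicate 1, HF24 replicate 1 or HF24 replicate 2 left out (adjusted p from 0.0679 to 0.112). The second Irf7 probe was not called over time on the high-fat diet (0.07).

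Stat2 and Irf9 are subunits of ISGF3. Stat2 stood at 2.33 and 2.26 in C12, 1.66 and 1.84 in HF12, 2.05 and 1.96 in C24 and 1.72 and 1.76 in HF24. Its high-fat arrays lay below its chow arrays at each time, with changes of −0.54 ± 0.08 (adjusted p = 0.00403) at 12 weeks and −0.27 ± 0.08 (adjusted p = 0.046) at 24 weeks. The 24-week call was lost with any array but HF12 replicate 1 or HF12 replicate 2 left out (adjusted p from 0.0642 to 0.182). Stat2 fell with time on chow (−0.29 ± 0.08, adjusted p = 0.0269), a call lost with C12 replicate 1, C12 replicate 2, C24 replicate 1 or C24 replicate 2 left out (adjusted p from 0.0526 to 0.12). As the mean of its probes, Stat2 was not called for diet at either time (adjusted p = 0.597 and 0.124). Its second probe was dimmer, well above background on 6 of the 8 arrays, with a standard error of 0.88. That probe was not called in the 12-week diet comparison (−0.19) or over time on chow, where it had the other sign (1.25). Irf9 stood at 1.63 and 1.56 in C12, 1.41 and 1.37 in HF12, 1.73 and 1.69 in C24 and 1.60 and 1.67 in HF24, a narrow range. It fell at 12 weeks (−0.21 ± 0.06, adjusted p = 0.0452), a call lost with any array left out (adjusted p from 0.0631 to 0.176), and its 24-week change was −0.08 ± 0.06 (adjusted p = 0.368). Irf9 rose with time on the high-fat diet (0.25 ± 0.06, adjusted p = 0.0175), a call lost with HF12 replicate 1, HF12 replicate 2 or HF24 replicate 2 left out (adjusted p from 0.0592 to 0.0988). A second Irf9 probe was not called for diet at 12 weeks (−0.16) or over time on the high-fat diet (0.16).

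The oligoadenylate synthetases bind double-stranded RNA and make a messenger that sets off the breakdown of RNA in the cell. Oas2 stood at 0.57 and 0.47 in C12, 0.65 and 0.72 in HF12, 1.53 and 1.52 in C24 and 0.05 and −0.00 in HF24. C24 was the highest group and HF24 the lowest, with C12 and HF12 close together between them. The diet change was 0.16 ± 0.06 (adjusted p = 0.105) at 12 weeks and −1.50 ± 0.06 (adjusted p = 8.65e-05) at 24 weeks, a 2.82-fold fall, and the interaction was −1.66 ± 0.09 (adjusted p = 1.36e-04). With time Oas2 rose 2-fold on chow (1.00 ± 0.06, adjusted p = 1.04e-04) and fell on the high-fat diet (−0.66 ± 0.06, adjusted p = 6.32e-04).

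Oasl1, a relative that lacks synthetase activity and is known in mice as a brake on translation of Irf7, stood at 1.16 and 1.05 in C12, 1.11 and 1.12 in HF12, 2.17 and 2.00 in C24 and 1.06 and 1.07 in HF24. The C24 arrays were about 1 log2 unit above the other 6, which overlapped. The diet change was 0.01 ± 0.08 (adjusted p = 0.961) at 12 weeks and −1.02 ± 0.08 (adjusted p = 4.19e-04) at 24 weeks, with an interaction of −1.03 ± 0.11 (adjusted p = 0.00156), and Oasl1 rose with time on chow (0.98 ± 0.08, adjusted p = 2.64e-04). Oas1a was also highest in C24, at 3.35 and 3.13 in C12, 3.39 and 3.48 in HF12, 4.07 and 3.88 in C24 and 3.42 and 3.47 in HF24. It fell at 24 weeks (−0.53 ± 0.10, adjusted p = 0.0109), a call lost with C24 replicate 1 or HF24 replicate 1 left out (adjusted p = 0.054 and 0.0542), and rose with time on chow (0.74 ± 0.10, adjusted p = 0.00221). Its interaction was −0.73 ± 0.14 (adjusted p = 0.0137), lost with HF12 replicate 2 left out (adjusted p = 0.052). Oas1g, a close copy of this gene, has a probe of its own, at −2.87 and −2.75 in C12, −2.13 and −2.30 in HF12, −1.87 and −1.62 in C24 and −2.28 and −2.22 in HF24. That probe rose at 12 weeks (0.60 ± 0.11, adjusted p = 0.00931), where Oas1a was 0.20 ± 0.10 (adjusted p = 0.197), and fell at 24 weeks (−0.50 ± 0.11, adjusted p = 0.0156), a call lost with C24 replicate 2 or HF24 replicate 1 left out (adjusted p = 0.0577 and 0.072). Whether either probe also picks up RNA of the other gene was not tested. Oas3 had its own pattern, at −5.06 and −4.57 in C12, −3.22 and −3.12 in HF12, −3.62 and −3.51 in C24 and −3.75 and −3.65 in HF24. Both C12 arrays were below all others, and HF12 was highest. It rose 3.12-fold on the high-fat diet at 12 weeks (1.64 ± 0.16, adjusted p = 8.28e-04), with a 24-week change of −0.13 ± 0.16 (adjusted p = 0.574) and an interaction of −1.77 ± 0.23 (adjusted p = 0.00285). With time it rose on chow (1.25 ± 0.16, adjusted p = 0.00166) and fell on the high-fat diet (−0.53 ± 0.16, adjusted p = 0.0395), the latter lost with any array but C12 replicate 1 or C12 replicate 2 left out (adjusted p from 0.0579 to 0.152). Oas2 and Oas3 are next to each other on chromosome 5 with no protein-coding gene between, as are Oasl1 and Oasl2.

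Oasl2 stood at 1.28 and 1.29 in C12, 0.97 and 0.94 in HF12, 1.36 and 1.52 in C24 and 1.13 and 1.00 in HF24, and its high-fat arrays lay below its chow arrays at both times. The falls were −0.33 ± 0.08 (adjusted p = 0.024) at 12 weeks, lost with C12 replicate 1, C12 replicate 2, HF12 replicate 1 or HF12 replicate 2 left out (adjusted p from 0.0776 to 0.108), and −0.38 ± 0.08 (adjusted p = 0.0135) at 24 weeks, lost with C24 replicate 2 or HF24 replicate 2 left out (adjusted p = 0.0585 and 0.069). Eif2ak2, which encodes PKR, the kinase that stops translation when it binds double-stranded RNA, was not called in any of the 5 comparisons. Its levels were 0.00 and 0.11 in C12, −0.08 and −0.26 in HF12, 0.02 and −0.17 in C24 and −0.34 and −0.33 in HF24. The diet changes were −0.23 ± 0.10 (adjusted p = 0.13) and −0.26 ± 0.10 (adjusted p = 0.0912).

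The IFIT proteins bind viral RNA and block its translation. Ifit1 stood at 0.50 and 0.31 in C12, −0.81 and −0.86 in HF12, 0.54 and 0.47 in C24 and −1.31 and −1.17 in HF24. All 4 chow arrays lay more than 1 log2 unit above all 4 high-fat arrays. It fell 2.37-fold at 12 weeks (−1.24 ± 0.09, adjusted p = 2.11e-04) and 3.35-fold at 24 weeks (−1.74 ± 0.09, adjusted p = 1.38e-04), the largest fall among the 31 genes in that comparison. The interaction was −0.50 ± 0.12 (adjusted p = 0.0294), lost with any array but C12 replicate 1 or HF24 replicate 2 left out (adjusted p from 0.058 to 0.095). Ifit1 also fell with time on the high-fat diet (−0.40 ± 0.09, adjusted p = 0.0126), a call lost with HF12 replicate 1 or HF24 replicate 1 left out (adjusted p = 0.0677 and 0.0673).

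Ifit3, which binds and steadies Ifit1, stood at 1.84 and 1.98 in C12, 0.81 and 0.83 in HF12, 1.46 and 1.60 in C24 and 0.17 and 0.07 in HF24. Each high-fat group lay below the chow group of its time, 2.12-fold at 12 weeks (−1.09 ± 0.08, adjusted p = 2.73e-04) and 2.66-fold at 24 weeks (−1.41 ± 0.08, adjusted p = 1.90e-04). It fell with time on the high-fat diet (−0.70 ± 0.08, adjusted p = 0.00132) and on chow (−0.37 ± 0.08, adjusted p = 0.0122), the latter lost with C12 replicate 2 or C24 replicate 1 left out (adjusted p = 0.0554 and 0.0596). The probe of its near-identical copy Ifit3b, which may share signal, fell at both times as well, with changes of −1.19 ± 0.07 (adjusted p = 7.83e-05) and −1.58 ± 0.07 (adjusted p = 8.81e-05). Ifit2, the next gene to Ifit3 on chromosome 19, stood at −1.82 and −1.83 in C12, −1.89 and −1.95 in HF12, −1.84 and −1.86 in C24 and −1.96 and −1.89 in HF24. Its 8 arrays spanned 0.14 log2 units, and no comparison was called.

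Rsad2 encodes viperin, which makes a nucleotide analogue that stops viral RNA synthesis, and Cmpk2, its neighbour on the opposite strand of chromosome 12, encodes a kinase that supplies the precursor nucleotide. Rsad2 stood at −1.87 and −1.55 in C12, −1.37 and −1.13 in HF12, −0.56 and −0.50 in C24 and −1.65 and −1.70 in HF24. C24 was above the other 6 arrays, while C12 overlapped HF24 and lay below HF12. The diet change was 0.46 ± 0.13 (adjusted p = 0.04) at 12 weeks and −1.14 ± 0.13 (adjusted p = 0.0014) at 24 weeks, with an interaction of −1.60 ± 0.18 (adjusted p = 0.00177). The 12-week rise was lost with any array but C12 replicate 2 left out (adjusted p from 0.0577 to 0.175). With time Rsad2 rose on chow (1.18 ± 0.13, adjusted p = 8.31e-04) and fell on the high-fat diet (−0.42 ± 0.13, adjusted p = 0.0368), the latter lost with HF12 replicate 2, C24 replicate 1, C24 replicate 2, HF24 replicate 1 or HF24 replicate 2 left out (adjusted p from 0.0565 to 0.167).

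Cmpk2 stood at −2.25 and −2.18 in C12, −1.76 and −1.82 in HF12, −1.70 and −1.61 in C24 and −2.12 and −2.04 in HF24, in the same order of groups except that HF24 lay above both C12 arrays. The change on the high-fat diet was 0.43 ± 0.06 (adjusted p = 0.00483) at 12 weeks and −0.43 ± 0.06 (adjusted p = 0.00447) at 24 weeks, and the interaction was −0.86 ± 0.09 (adjusted p = 0.00154). It rose with time on chow (0.56 ± 0.06, adjusted p = 0.00107) and fell on the high-fat diet (−0.29 ± 0.06, adjusted p = 0.0136), the latter lost with HF12 replicate 1 or HF24 replicate 1 left out (adjusted p = 0.0743 and 0.0804).

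Isg15 is a ubiquitin-like protein that is joined to other proteins, and Usp18 removes it and also blocks the interferon receptor. Isg15 stood at 4.82 and 4.79 in C12, 3.83 and 3.86 in HF12, 5.30 and 5.20 in C24 and 3.93 and 4.0 in HF24. Both chow groups lay above both high-fat groups. It fell 1.95-fold at 12 weeks (−0.96 ± 0.06, adjusted p = 1.33e-04) and 2.43-fold at 24 weeks (−1.28 ± 0.06, adjusted p = 1.22e-04). The interaction was −0.32 ± 0.09 (adjusted p = 0.0385), lost with any array but C24 replicate 2 left out (adjusted p from 0.0698 to 0.128). On chow Isg15 rose with time (0.44 ± 0.06, adjusted p = 0.00216), while on the high-fat diet the change was 0.12 ± 0.06 (adjusted p = 0.151).

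Usp18 stood at 1.12 and 1.05 in C12, −0.15 and −0.07 in HF12, 1.13 and 1.04 in C24 and −0.23 and −0.22 in HF24. The 4 chow arrays were within 0.09 of each other and more than 1 log2 unit above the high-fat arrays. Usp18 fell 2.29-fold at 12 weeks (−1.20 ± 0.06, adjusted p = 6.45e-05) and 2.48-fold at 24 weeks (−1.31 ± 0.06, adjusted p = 1.31e-04). The interaction was −0.11 ± 0.09 (adjusted p = 0.389), and neither time comparison was called. Trim25, a ubiquitin ligase that acts on RIG-I, stood at 3.67 and 3.60 in C12, 3.75 and 3.83 in HF12, 3.98 and 3.88 in C24 and 3.64 and 3.72 in HF24. It fell at 24 weeks (−0.25 ± 0.07, adjusted p = 0.0373), a call lost with any array left out (adjusted p from 0.0501 to 0.175). Its interaction was −0.41 ± 0.10 (adjusted p = 0.0242), lost with C12 replicate 2, HF12 replicate 1, HF12 replicate 2, C24 replicate 1 or HF24 replicate 1 left out (adjusted p from 0.051 to 0.0829), and a second Trim25 probe rose at 12 weeks (0.67). Trim25 rose with time on chow (0.29 ± 0.07, adjusted p = 0.0149), a call lost with C12 replicate 2 or C24 replicate 1 left out (adjusted p = 0.0638 and 0.0737). Herc6, the ligase that attaches Isg15 in mice, stood at −3.45 and −3.78 in C12, −3.53 and −3.55 in HF12, −3.36 and −2.04 in C24 and −3.07 and −3.10 in HF24. Its C24 arrays were 1.32 apart, no comparison was called, and its standard error of 0.40 was the largest of the 31 genes.

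Bst2, or tetherin, holds budding virus particles on the cell surface. It stood at 4.71 and 4.80 in C12, 3.94 and 3.93 in HF12, 4.95 and 4.95 in C24 and 4.64 and 4.66 in HF24. HF12 lay lowest, and HF24 lay just below both chow groups. The fall was −0.82 ± 0.06 (adjusted p = 1.83e-04) at 12 weeks and −0.31 ± 0.06 (adjusted p = 0.00908) at 24 weeks, and the interaction was 0.51 ± 0.08 (adjusted p = 0.00561). The 24-week call was lost with HF24 replicate 1 left out (adjusted p = 0.0578). Bst2 rose with time on the high-fat diet (0.71 ± 0.06, adjusted p = 3.20e-04) and on chow (0.20 ± 0.06, adjusted p = 0.0304), the latter lost with any array but C12 replicate 2 left out (adjusted p from 0.0574 to 0.106). Ifitm3, which blocks the fusion of viruses in endosomes, stood at 5.82 and 5.96 in C12, 5.39 and 5.45 in HF12, 6.06 and 6.21 in C24 and 5.77 and 5.57 in HF24. Its high-fat arrays were below the chow arrays of the same time, with changes of −0.47 ± 0.10 (adjusted p = 0.0158) at 12 weeks and −0.46 ± 0.10 (adjusted p = 0.0153) at 24 weeks. These calls were lost with C12 replicate 2, HF12 replicate 1 or HF12 replicate 2 left out (adjusted p from 0.0604 to 0.0856) and with C24 replicate 2 or HF24 replicate 2 left out (adjusted p = 0.0704 and 0.0655), in that order.

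Of the other induced genes, Ifi44 encodes a cytoplasmic protein named for its induction by interferon. It stood at −1.18 and −1.20 in C12, −2.64 and −2.76 in HF12, −0.51 and −0.64 in C24 and −1.61 and −1.59 in HF24. The HF12 arrays were lowest and the C24 arrays highest, and no groups overlapped. Ifi44 fell 2.85-fold at 12 weeks (−1.51 ± 0.07, adjusted p = 3.55e-05), the largest fall among the 31 genes there, and 2.04-fold at 24 weeks (−1.03 ± 0.07, adjusted p = 2.96e-04). The interaction was 0.48 ± 0.10 (adjusted p = 0.0152), lost with HF12 replicate 2 left out (adjusted p = 0.0524). With time it rose on chow (0.62 ± 0.07, adjusted p = 0.00102) and on the high-fat diet (1.10 ± 0.07, adjusted p = 1.47e-04).

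Xaf1, which promotes cell death by binding the inhibitor XIAP, stood at 0.74 and 0.62 in C12, 0.14 and 0.09 in HF12, 1.29 and 1.21 in C24 and 0.61 and 0.65 in HF24. It fell at 12 weeks (−0.56 ± 0.07, adjusted p = 0.00176) and at 24 weeks (−0.62 ± 0.07, adjusted p = 0.00122), and rose with time on chow (0.57 ± 0.07, adjusted p = 0.00109) and on the high-fat diet (0.51 ± 0.07, adjusted p = 0.00191). Rtp4, a chaperone of membrane receptors, stood at 2.68 and 2.51 in C12, 1.80 and 1.85 in HF12, 3.10 and 2.96 in C24 and 2.41 and 2.51 in HF24. It had the same 4 calls, −0.77 ± 0.09 (adjusted p = 0.00147) and −0.57 ± 0.09 (adjusted p = 0.00457) for diet and 0.43 ± 0.09 (adjusted p = 0.00896) and 0.64 ± 0.09 (adjusted p = 0.00236) for time. For both genes the high-fat arrays lay below the chow arrays of the same time without overlap, and neither interaction was called.

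Ifi27, a mitochondrial protein, stood at 6.04 and 5.95 in C12, 5.60 and 5.60 in HF12, 5.86 and 5.80 in C24 and 5.85 and 5.87 in HF24, and Ifi35, a partner of Nmi, at 3.62 and 3.54 in C12, 3.06 and 3.17 in HF12, 3.55 and 3.46 in C24 and 3.40 and 3.39 in HF24. For both, HF12 was below the other 3 groups. Ifi27 fell at 12 weeks (−0.39 ± 0.06, adjusted p = 0.00454) with a 24-week change of 0.03 ± 0.06 (adjusted p = 0.725) and an interaction of 0.42 ± 0.08 (adjusted p = 0.013). Ifi35 fell at 12 weeks (−0.47 ± 0.07, adjusted p = 0.00428) with a 24-week change of −0.11 ± 0.07 (adjusted p = 0.271). Its interaction of 0.36 ± 0.10 (adjusted p = 0.039) was lost with any array left out (adjusted p from 0.0536 to 0.118), and a second Ifi35 probe was not called there (0.20). Both genes rose with time on the high-fat diet, Ifi27 by 0.26 ± 0.06 (adjusted p = 0.0139) and Ifi35 by 0.28 ± 0.07 (adjusted p = 0.0183), calls lost with HF12 replicate 1, HF12 replicate 2, HF24 replicate 1 or HF24 replicate 2 left out (adjusted p from 0.0626 to 0.0698) for Ifi27 and HF12 replicate 1, HF24 replicate 1 or HF24 replicate 2 left out (adjusted p from 0.0694 to 0.0961) for Ifi35. A second Ifi27 probe was not called over time on the high-fat diet (0.19).

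Parp14, an ADP-ribosyltransferase, and Samd9l, which restricts translation in infected cells, were not called in either diet comparison. Parp14 stood at 1.28 and 1.13 in C12, 1.11 and 1.12 in HF12, 1.38 and 1.27 in C24 and 1.31 and 1.34 in HF24 and Samd9l at 1.85 and 1.81 in C12, 1.77 and 1.74 in HF12, 2.07 and 2.11 in C24 and 1.94 and 1.93 in HF24. A second Parp14 probe fell at 24 weeks (−0.36). Samd9l rose with time on chow (0.26 ± 0.05, adjusted p = 0.00873) and on the high-fat diet (0.18 ± 0.05, adjusted p = 0.032), the latter lost with any array but C12 replicate 1 or C12 replicate 2 left out (adjusted p from 0.0517 to 0.145).

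From 12 to 24 weeks on chow, 15 of the 31 genes rose, 3 fell and 13 were not called, where 24.2% of all features rose and 22% fell. Of the macrophage markers 13 of 14 rose in the same comparison, and of the adipocyte markers 6 of 7 fell. The median change was 0.24, against 0.02 over all features. The genes that rose included Oas1a, Oas2, Oas3, Oasl1, Rsad2 and Cmpk2, and those that fell were Ifih1, Stat2 and Ifit3. Of the 15 rises 13 held whichever array was left out, and of the 3 falls none did. There was 1 fall without C12 replicate 1, C12 replicate 2 or C24 replicate 2, 0 without C24 replicate 1, and 1 in a fit on the chow arrays alone. On the high-fat diet 11 genes rose with time and 7 fell, where 20.8% and 25.6% of all features did. The median there was 0.12, against −0.03. Zbp1 (1.79) and Ifi44 (1.10) rose most, and Ifit3 (−0.70) and Oas2 (−0.66) fell most. With HF12 replicate 1 or HF24 replicate 2 left out 5 rose, with HF24 replicate 1 left out 6, and with HF12 replicate 2 left out 7. Falls numbered 3 with HF12 replicate 1 left out, 2 with HF24 replicate 1 left out, and 4 with HF12 replicate 2, HF24 replicate 2 or either C24 array left out. Under quantile normalization 7 rose and 4 fell, and with no filter on dim probes 4 fell. At least 1 setting of this kind ended the calls of Cmpk2, Dhx58, Ifi27, Ifi35, Ifih1, Irf7, Irf9, Oas3, Rsad2 and Samd9l (adjusted p from 0.0507 to 0.911) there, and of Bst2, Ifih1, Samd9l, Stat2 and Trim25 (adjusted p from 0.0541 to 0.121) on chow.

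**Figure D3:**
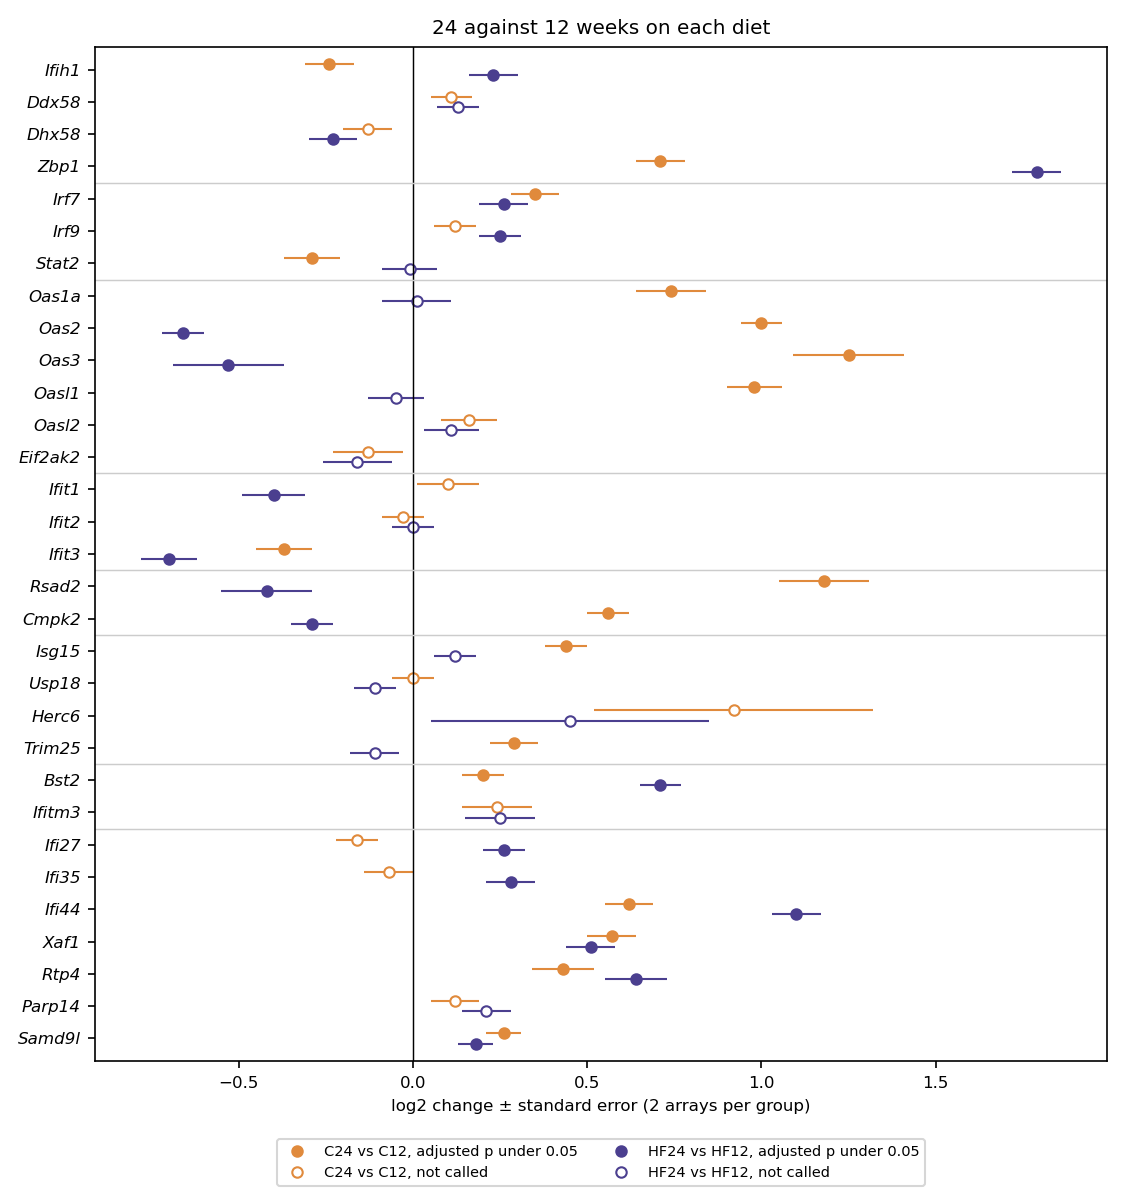
Change from 12 to 24 weeks on chow and on the high-fat diet for each of the 31 genes, as the log2 difference of 2 arrays against 2 with its standard error; filled points passed an adjusted p under 0.05. Oas2, Oas3, Rsad2 and Cmpk2 rose on chow and fell on the high-fat diet, and Zbp1 and Ifi44 rose on both.

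Upstream of these genes, 36 genes of interferon production, receptors and signalling were listed and 31 were tested. On the high-fat diet 8 rose and 5 fell at 12 weeks (13.7% and 17.6% of all features), and 8 rose and 3 fell at 24 weeks (12.9% and 20.3%). The list median was 0.12 at 12 weeks and 0.10 at 24 weeks. The interferon genes Ifnb1, Ifna4 and Ifnk were not well above background on any array, and Ifne was so on 1 array. Ifna1, Ifna2, Ifna5 and Ifnl3 were well above background on all 8 arrays and were called in none of the 5 comparisons. Their changes ran from 0.00 to 0.66 for diet at 12 weeks and from −0.20 to 0.16 at 24 weeks. The 0.66 was that of Ifna1 and rests on 1 array, with levels of −4.03 and −4.12 in C12 and −4.11 and −2.72 in HF12. Of the receptor chains, Ifnar1 stood at 1.67 and 1.76 in C12, 1.81 and 1.88 in HF12, 1.85 and 1.92 in C24 and 1.24 and 1.28 in HF24. HF24 lay below the other 6 arrays. Ifnar1 fell at 24 weeks (−0.62 ± 0.06, adjusted p = 9.93e-04), with a 12-week change of 0.13 ± 0.06 (adjusted p = 0.161) and an interaction of −0.76 ± 0.09 (adjusted p = 0.00205). As the mean of its probes, Ifnar1 was not called at 24 weeks (−0.15, adjusted p = 0.24) or in the interaction (−0.33, adjusted p = 0.102). Ifnar2 was not called (−0.09 and −0.01).

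Of the receptor kinases, Jak1 fell at both times (−0.21 ± 0.05, adjusted p = 0.0315 and −0.31 ± 0.05, adjusted p = 0.00744), and the first call was lost with any array but C12 replicate 2 left out (adjusted p from 0.0552 to 0.141). Tyk2 rose at 12 weeks (0.53 ± 0.08, adjusted p = 0.00419) and its 24-week change was −0.23 ± 0.08 (adjusted p = 0.0711). Irf1, a transcription factor that also answers interferon gamma, fell at 12 weeks (−0.30 ± 0.08, adjusted p = 0.0389), a call lost with any array but C24 replicate 1 or C24 replicate 2 left out (adjusted p from 0.0644 to 0.157). It rose at 24 weeks (1.22 ± 0.08, adjusted p = 2.84e-04), with an interaction of 1.52 ± 0.12 (adjusted p = 4.54e-04).

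On the sensing side, Tbk1, the kinase that activates Irf3, rose at 12 weeks (0.43 ± 0.06, adjusted p = 0.00447). The adaptor Mavs (−0.16 and 0.10) and Irf3 itself (0.04 and 0.11) were not called for diet. Core genes such as Irf1, always eligible for naming, were left out of the next ranking. Among the others upstream, the smallest p in both diet comparisons belonged to Irf8, Irf5, Ptpn6 and Unc93b1, all known in myeloid cells. Irf8 rose by 3.51 at 12 weeks and 1.40 at 24 weeks, Irf5 by 2.59 and 0.99, and the phosphatase gene Ptpn6 by 3.90 and 1.41. Unc93b1, which carries Toll-like receptors to endosomes, rose by 1.47 and 0.63.

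Of 48 further interferon-stimulated genes 43 were tested, among them genes better known as targets of interferon gamma. On the high-fat diet 3 rose and 22 fell at 12 weeks, and 13 rose and 14 fell at 24 weeks, with medians of −0.25 and −0.01. The shares over all features, given above for the same 2 comparisons, were 13.7% and 17.6% at 12 weeks and 12.9% and 20.3% at 24 weeks. At 12 weeks these and the antiviral genes thus both had more falls than rises. At 24 weeks the antiviral genes had 0 rises and 21 falls. The interaction was positive and called for 18 of the 43 genes and negative for 6, against 6 and 9 of the 31 antiviral genes and 12.8% and 17% of all features. The chemokine gene Cxcl9 fell at 12 weeks (−2.18 ± 0.05, adjusted p = 3.22e-06) and rose at 24 weeks (2.81 ± 0.05, adjusted p = 3.27e-05). The GTPase gene Iigp1 did likewise (−2.33 ± 0.07, adjusted p = 7.97e-06 and 1.83 ± 0.07, adjusted p = 8.07e-05). Gbp2, another GTPase of the interferon gamma response, fell at 12 weeks (−0.72 ± 0.07, adjusted p = 6.64e-04) and rose at 24 weeks (1.04 ± 0.07, adjusted p = 2.49e-04). The immunoproteasome gene Psmb9 rose at 24 weeks (1.39 ± 0.06, adjusted p = 8.90e-05), with a 12-week value of −0.06 ± 0.06 (adjusted p = 0.486). Ifitm1, a relative of Ifitm3, fell at 12 weeks (−1.46 ± 0.06, adjusted p = 2.66e-05) and at 24 weeks (−0.31 ± 0.06, adjusted p = 0.0129), the latter lost with C24 replicate 1, C24 replicate 2, HF24 replicate 1 or HF24 replicate 2 left out (adjusted p from 0.0511 to 0.0664).

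**Figure D4:**
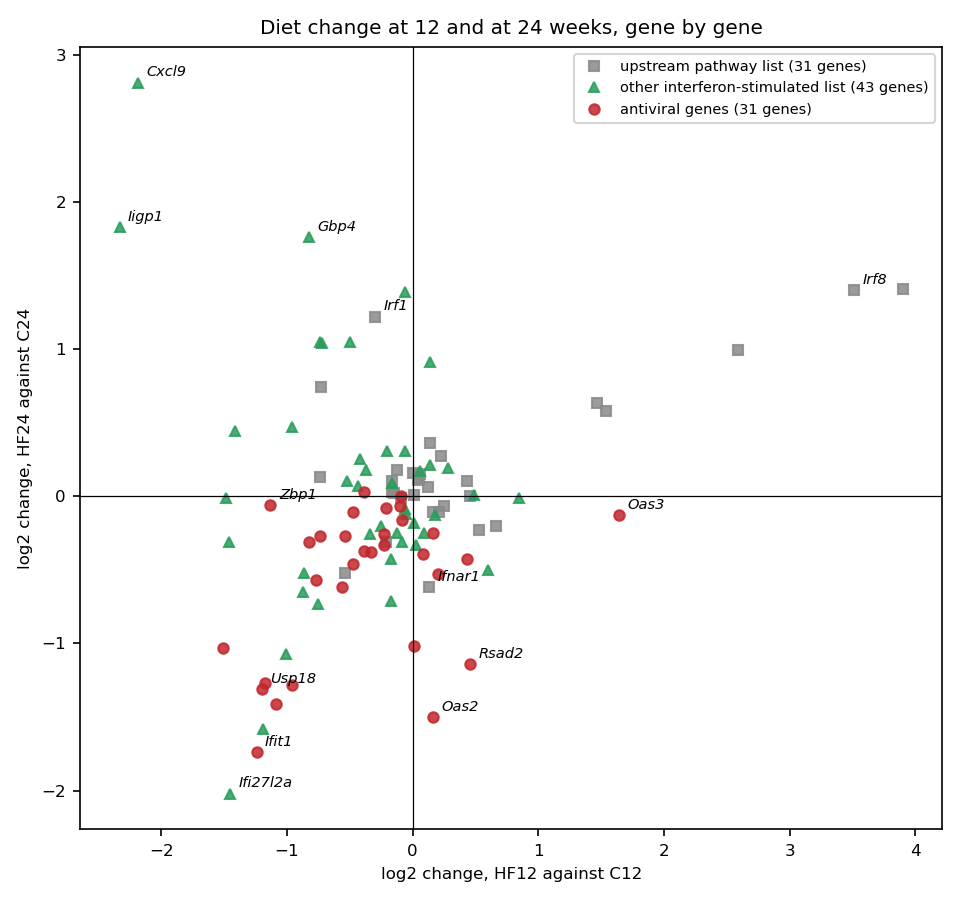
Change between high-fat diet and chow at 12 weeks (horizontal axis) and at 24 weeks (vertical axis) on the log2 scale, 1 dot per gene, for the 31 antiviral genes, 31 upstream genes and 43 further interferon-stimulated genes. Many antiviral genes lie in the lower left quadrant, among them Ifit1 and Usp18, while Cxcl9 and Iigp1 lie in the upper left and Irf8 in the upper right.

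The cell types behind the RNA were read from marker lists, as the summed linear intensity relative to the 75th percentile of the array. Stromal markers (10 of 12 matched, among them Pdgfra, Pdgfrb and Thy1) summed to 732 to 734 in C12, 634 to 638 in HF12, 703 to 713 in C24 and 631 to 658 in HF24. All of the matched stromal markers were well above background on some array. Col1a2 and Dcn make up most of each sum. Of the 10 stromal markers 1 rose and 5 fell on the high-fat diet at 12 weeks, and 1 rose and 4 fell at 24 weeks. Over all features 13.7% rose and 17.6% fell at 12 weeks, and 12.9% and 20.3% at 24 weeks. Nt5e stood at −0.35 and −0.59 in C12, −3.75 and −3.8 in HF12, −2.91 and −3.03 in C24 and −3.37 and −3.37 in HF24. Of the 14 macrophage markers, whose sums are given with the diet comparisons, 13 rose and 0 fell on the high-fat diet at 12 weeks, and 12 rose and 1 fell at 24 weeks, and none was below background on all arrays. In the 2 diet comparisons more antiviral genes fell than rose, and more macrophage markers rose than fell. Over time on chow both lists had more rises than falls. Over time on the high-fat diet 11 antiviral genes rose and 7 fell, and 3 macrophage markers rose and 10 fell. Whether the 2 lists are linked was not tested. Of the 7 adipocyte markers 6 fell on the high-fat diet at 12 weeks and 5 at 24 weeks, with none higher and medians of −3.28 and −0.68. Adipoq, an adipocyte hormone gene, fell 10.1-fold at 12 weeks (−3.33 ± 0.07, adjusted p = 2.41e-06), and at 24 weeks it was called lower and was not well above background on either HF24 array. The adipocyte sums at 24 weeks, 32.6 to 32.8 in C24 and 34.2 to 35.7 in HF24, do not show this, because Fabp4 makes up most of them.

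The 6 markers of plasmacytoid dendritic cells, the main interferon producers of blood, summed to 119 to 124 in C12, 110 to 115 in HF12, 116 to 118 in C24 and 104 to 108 in HF24. Siglech makes up most of each sum, so the sum says little about the other markers. Ccr9 was well above background on 3 of the 8 arrays, and Klk1 was never well above background. Of the 5 tested markers 1 rose, 1 fell and 3 were not called on the high-fat diet at each time. The 9 lymphocyte markers summed to 2.71 to 3 in C12, 2.71 to 3.06 in HF12, 3.01 to 3.04 in C24 and 3.28 to 3.4 in HF24, with Cd8a and Ms4a1 never well above background. Cd3e and Cd4 make up most of that sum. None of the 7 tested lymphocyte markers was called for diet at 12 weeks, and at 24 weeks Nkg7 (2.72 ± 0.16, adjusted p = 1.88e-04) and Cd3d (0.92 ± 0.07, adjusted p = 3.90e-04) rose, with Nkg7 well above background on 1 of the 2 C24 arrays. The 6 endothelial markers summed to 6.54 to 6.55, 6.29 to 6.39, 10.6 to 11.1 and 16.3 to 16.4 in the same order of groups. The 5 keratinocyte markers summed to 0.136 to 0.157 in C12 and 0.178 to 0.202 in HF12, with Krt15 never well above background. Muscle markers (4 genes) summed to 74.6 to 77.5 in C12 and 52.7 to 56.1 in HF12. The part of these cell types in the changes of the antiviral genes was not tested.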

How the data were processed

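Each of 8 one-colour (Cy3) Agilent mouse arrays measured total RNA of cultured cells, on 1 slide read in 1 scan. Spots carry a deposited processed intensity, background-subtracted by Agilent Feature Extraction 11.0.1.1, per the file headers and the submitters' processing notes, with no scaling between arrays. The authors also deposited a table of log2 values for 38475 probes (38172 matched here). Its values equal log2 of the processed intensity plus a constant per array, between −9.99 and −9.79, with column medians from −1.46 to −1.35. Its direction and scale follow from that match, and the rule behind the constant is not stated.

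After control spots were set aside, 59305 of 62976 spots per array remained, for 56605 probes, and 367 probes with an outlier flag were left out. Spots of a probe were averaged, and the 75th percentile over all non-control spots was subtracted from log2 intensity. Probes well above background on both arrays of at least 1 group were kept (37476). Each gene took its brightest kept probe by mean, giving 29462 genes or unnamed features, 16708 with a symbol. Accessions were matched to symbols through a RefSeq table of GRCm38.p6, which named 32835 probes and left 23403 unnamed. The file headers name another build, so no array coordinates are printed. Of the 31 genes, 11 had over 1 kept probe; their 13 further probes never gave a call opposite to the probe used.

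All 8 arrays entered 1 limma fit with a mean for each group (limma 3.58.1, R 4.3.3, 4 residual and 1.88 prior degrees of freedom). P-values were two-sided and adjusted by Benjamini-Hochberg over all features, with a threshold of 0.05, and the test was checked on simulated data. Python 3.11.15, pandas 2.3.3 and matplotlib 3.10.9 were used otherwise. The number of arrays limits the precision. Every listed gene could be named; of the other lists, 10 core genes were always eligible, with up to 4 further called genes per comparison by smallest p. Oas1g, Ifna1, Ifna2, Ifna4, Ifna5, Ifne, Ifnk, Ifnl3, Ikbke and Slfn8 lie outside this rule and were named after their values were seen. Other genes outside it are named only as markers or as partners of a listed gene. Some genes that the rule allows are counted in their lists but not reported here by name. The genes and lists were chosen with earlier results of these data known. Alternatives were normexp (offset 50) on the deposited median intensity with quantile normalization, quantile normalization alone, the percentile over probes (added after seeing the data), the authors' log2 table, 2 other filters on dim probes, the mean of all probes of a gene, an intensity trend, a fit on the 2 groups alone, a block for replicate number, and each array left out in turn. No pairing by replicate number was assumed. The differences between replicates 1 and 2 correlated between groups at −0.082 to 0.166. With 2 arrays per group this cannot settle whether the numbers pair the arrays.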

Additional observations from a re-analysis of the deposited data

Results flagged for a closer look

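For 15 of the 31 antiviral genes the interaction test found that the diet change differed between 12 and 24 weeks. As the change at 24 weeks minus the change at 12 weeks on the log2 scale, it was −1.77 for Oas3, −1.66 for Oas2, −1.60 for Rsad2, −1.03 for Oasl1, −0.86 for Cmpk2, −0.73 for Oas1a, −0.50 for Ifit1, −0.41 for Trim25 and −0.32 for Isg15. It was 0.36 for Ifi35, 0.42 for Ifi27, 0.47 for Ifih1, 0.48 for Ifi44, 0.51 for Bst2 and 1.08 for Zbp1. With each array left out in turn, 5 of the 9 negative calls (Oas2, Oas3, Oasl1, Rsad2 and Cmpk2) and 3 of the 6 positive calls (Ifi27, Bst2 and Zbp1) held every time. Over all features 29.8% had a called interaction. Slide row separates the 2 times and slide column the 2 diets.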

How the results depend on the processing

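For 155 gene and comparison results of the antiviral genes, the alternatives other than leaving out an array were set against the main fit. They left the side of the threshold unchanged in 1420 cases, ended a call in 76 and gave a new call in 22. In 1 case they turned the direction of a call. The unchanged cases can include sign turns of results not called in either fit. Such turns numbered 38 over all alternatives, left-out arrays included. The turned call was Stat2 over time on chow, 0.48 (adjusted p = 0.441) as the mean of its probes; the same setting turned Ifnar2 there (0.25, adjusted p = 0.00986), Ikbke (−0.03, 0.924) and Slfn8 (0.02, 0.914) in the 12-week diet comparison, and Tlr7 over time on the high-fat diet (−0.00, 0.986). The cause was not tested. Counts moved over 1.5 times for falls over time on chow (1 with only the groups compared, against 3), for rises over time on the high-fat diet (7 with quantile normalization, against 11) and for falls there (4 with quantile normalization and 4 with no filter on dim probes, against 7). With each array left out, rises and falls ranged over 2 to 3 and 15 to 17 for diet at 12 weeks, 0 to 0 and 15 to 19 at 24 weeks, 14 to 14 and 0 to 2 over time on chow, 5 to 12 and 2 to 7 over time on the high-fat diet, and 4 to 5 and 5 to 8 for the interaction. With replicate number as a block the counts were 3 and 17, 0 and 19, 14 and 2, 9 and 6, and 5 and 6 in the same order. Whether the numbers pair the arrays was not settled. Oas3 and Herc6 had the lowest signals and the largest standard errors of the 31 genes.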
